A study of Homo sapiens with 4 samples.

Results

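The 10 genes described here belong to the epithelial-mesenchymal transition (EMT) and were looked up by gene name in both arms of the series. They are the transcription factors SNAI1, SNAI2, ZEB1, ZEB2 and TWIST1 and the cadherins CDH1 and CDH2. The others are the intermediate filament gene VIM, the hyaluronan receptor gene CD44 and the matrix gene FN1. All 10 are among the 16448 genes listed for total RNA, and 8 of them are among the 10662 listed for the pulldown. All 4 libraries come from HEK293T, a human embryonic kidney cell line that carries adenovirus sequences and the SV40 large T antigen, and no group differs from another in genotype. One library is RNA recovered with biotin-labelled miR-34a, one is RNA recovered with the control that the submitters call NC, one is total RNA of cells given a miR-34a mimic (a synthetic duplex that supplies the microRNA), and one is total RNA of cells given the NC mimic. The sources used here do not give the dose, the time after transfection or the sequence of NC. Each group has 1 library, so no difference could be set against the spread of replicates and no test was made. In bulk RNA of this kind, fewer cells with a transcript and less of it per cell cannot be told apart.

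In EMT, epithelial cells loosen their junctions and take on a migratory, mesenchymal state. SNAIL, ZEB and TWIST factors bind E-box motifs and repress CDH1, which encodes the junction protein E-cadherin, while CDH2 (N-cadherin), VIM and FN1 are usual markers of the mesenchymal side. The tumour suppressor p53 induces miR-34a, which has been described as an inhibitor of EMT, and SNAI1 and CD44 are among its published targets.

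A microRNA pairs with its targets mainly through its seed, bases 2 to 8. The seed of miR-34a-5p is shown because it is what a bound RNA is expected to match; its complement in a target reads CACUGCC. miR-34a-5p is printed 5′ to 3′ beside miR-449a and miR-449b-5p, which have the same bases 2 to 8, from the RefSeq table of mature human microRNAs on GRCh38.p14, with the seed in capitals; miR-34c-5p is a further relative.
hsa-miR-34a-5p: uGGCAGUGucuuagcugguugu
hsa-miR-449a: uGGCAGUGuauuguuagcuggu
hsa-miR-449b-5p: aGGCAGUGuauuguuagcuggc
MIR34A lies on chromosome 1 (9151735 to 9151756, minus strand, for the mature arm), and both MIR449 genes lie on chromosome 5. The 3 printed sequences share the seed and differ mostly after it. The target RNAs themselves were not searched for the seed match here.

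The total RNA libraries held 45493090 control and 42679778 miR-34a reads, and the pulldown libraries 306996 and 546180. Levels are counts per 1e+06 reads of the TMM-scaled library total (CPM). Ratios are log2 values that divide the miR-34a library by its control, and brackets give the 95% counting interval. A gene was measured where both libraries of a comparison together had at least 20 reads, and it was called higher or lower where it differed by at least 1.5-fold and its interval left out a ratio of 1. The 5 HEK293 markers NEFL, NEFM, INA, LHX1 and PAX2 were all measured in total RNA. Of 8 blood cell markers 5 were measured there, with summed levels of 4.47 control and 4.25 miR-34a CPM, and PTPRC, CD3E and HBB had no row. Of 8 fibroblast markers 6 were measured, with sums of 78.1 and 69.2 CPM; PDGFRA, LUM and COL3A1 were called lower and THY1 higher, and their part in the results below was not tested. NEFL was called higher, at 0.86 [0.80 to 0.92] (0.22 and not called on the deposited RPKM scale), so the summed HEK293 markers stood at 170.3 control and 290.9 miR-34a CPM. In the pulldown no blood marker was listed, NEFL (-0.42) was the one HEK293 marker measured, and of 4 fibroblast markers PDGFRA was higher, with 1 control and 55 miR-34a reads.

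**Figure D1:**
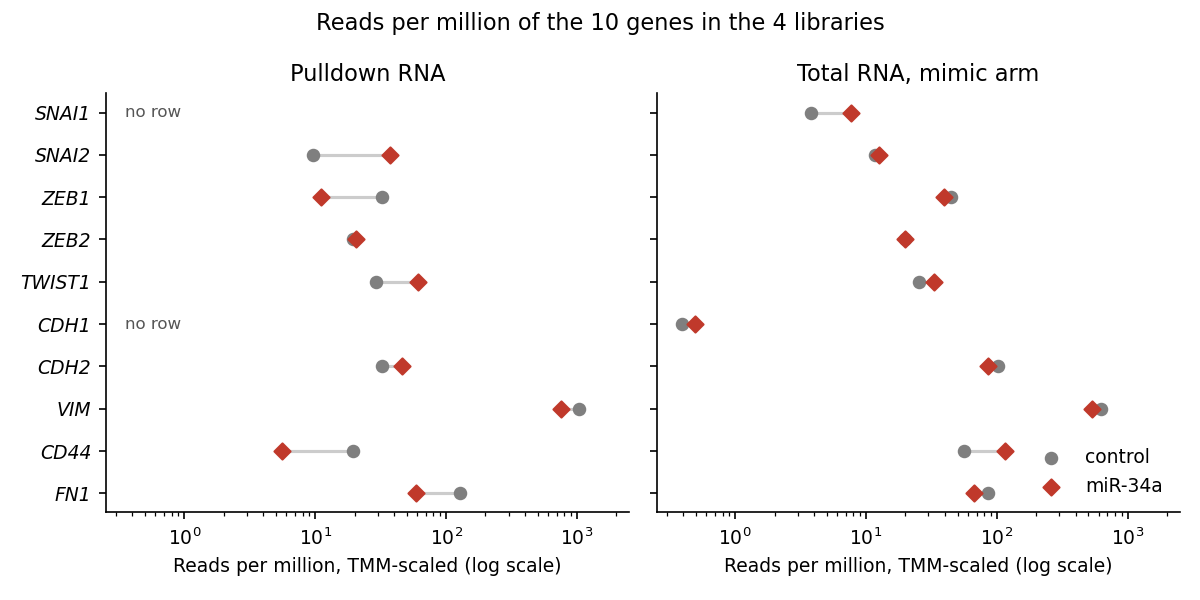
CPM of each gene (TMM-scaled, log axis) in the pulldown libraries (left) and the total RNA libraries (right), control as circles and miR-34a as diamonds, 1 library per point. CD44 and SNAI1 are about 2-fold apart in total RNA, CDH1 is below 1 CPM, and SNAI1 and CDH1 have no row in the pulldown table.

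In total RNA the mesenchymal markers VIM and CDH2 were far more abundant than the epithelial marker CDH1. By the deposited RPKM of the control mimic library, a level per transcript length, VIM was highest at 495.4 and CDH1 lowest at 0.135. TWIST1 stood at 25.3, ZEB2 at 18.4, FN1 at 16.8, ZEB1 at 12.5, SNAI2 at 9.36 and SNAI1 at 3.77. ZEB2 and FN1 did not differ beyond counting error (ratio 1.09, interval 0.986 to 1.21), while the ratios of the other neighbours in this order did. In the miR-34a mimic library the pair within counting error was ZEB1 and SNAI2, at 7.06 and 6.40 RPKM.
CDH2 and CD44 had 305.6 and 133.5 RPKM in the control, but their places in the order, and that of ZEB2, rest on the length the authors used. The values imply a length for CDH2 of 0.265, for CD44 of 0.331 and for ZEB2 of 0.850 times that of VIM, although all 3 are known as longer messages than VIM, and every listed transcript of a gene has the same implied length. The order of ZEB2 against FN1, ZEB1, SNAI2 and SNAI1 is thus uncertain, and so are the ratios above that involve ZEB2, CDH2 or CD44. In reads ZEB2 had 911 in the control, FN1 3924, ZEB1 2044, SNAI2 538 and SNAI1 174. Counted in reads alone, CDH2 had 261.7 times as many as CDH1 in the control and 171.5 times as many with the mimic. The epithelial gene EPCAM was as scarce as CDH1, with 4 control and 16 miR-34a reads. The keratin genes KRT8 and KRT18, which mark simple epithelia, were abundant, with 40276 and 17806 control reads.

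The first comparison sets total RNA of cells given the miR-34a mimic against that of cells given NC. CD44 and SNAI1 were higher with the mimic, both by about 2-fold, and none of the other 8 genes passed the 1.5-fold call. VIM, CDH2, FN1 and ZEB1 were lower by less than 1.5-fold, beyond counting error, and TWIST1 was higher by less than 1.5-fold. Of all 14787 genes measured, 6.80% were called higher and 2.45% lower; the 2 higher and 0 lower of the 10 genes are to be read against these shares. By the interval alone, 3 of the 10 genes were higher and 4 lower, where 25.3% and 23.1% of all genes were. The call depends on depth: among genes of 100 reads or more and under 1000, the range of SNAI1, 15.8% were called higher and 6.19% lower. Among genes of 20 to 49 reads, the range of CDH1, these shares were 7.65% and 3.94%. The shares among genes of 1000 reads or more, the range of CD44, were not computed. The median log2 ratio of the 10 was 0.05, against 0.00 for all genes, whose quartiles were -0.18 and 0.21. On the deposited RPKM scale the median gene moved to -0.65, so directions here are relative to the median gene; on that scale CD44 stood at 0.40 and SNAI1 at 0.37, and neither was called.

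**Figure D2:**
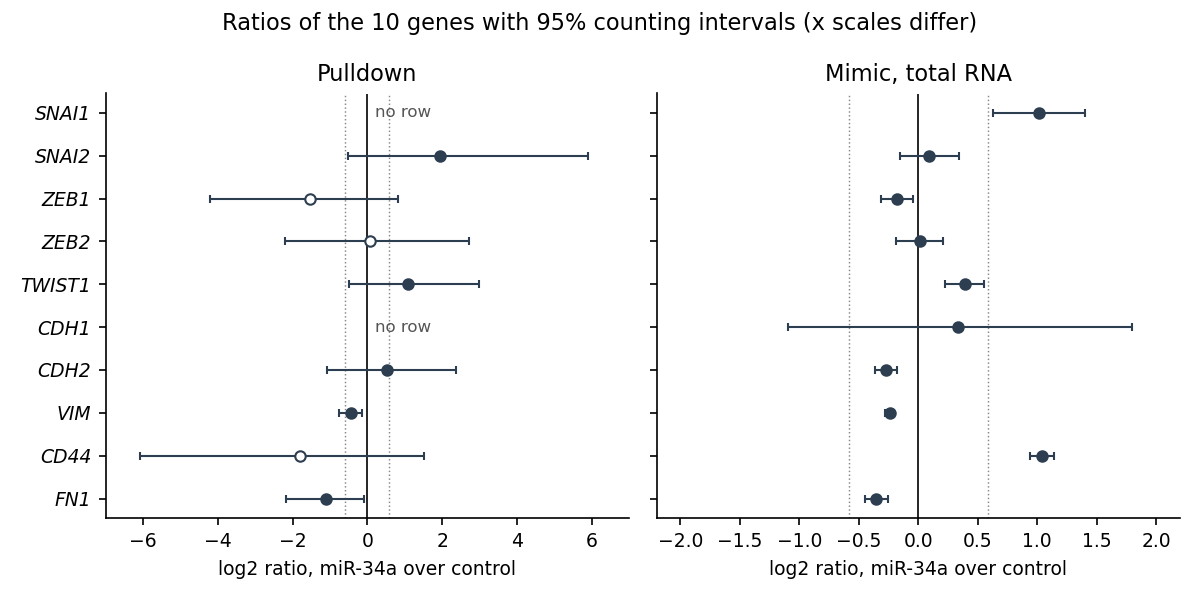
Log2 ratio of miR-34a over control for each gene with its 95% counting interval, in the pulldown (left) and in total RNA after the mimic (right), on x axes of different range. Open circles are genes under 20 reads, dotted lines mark 1.5-fold; with the mimic CD44 (1.04) and SNAI1 (1.01) lie beyond the line, and in the pulldown FN1 (-1.12) does with an interval that leaves out 0. On the deposited RPKM scale SNAI2, ZEB2, TWIST1 and CDH1 change sign with the mimic.

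Among the transcription factors, SNAI1, a zinc finger repressor of E-cadherin, had 174 control and 324 miR-34a reads. Its log2 ratio was 1.01 [0.63 to 1.41], and 4.01% of measured genes had a ratio as high or higher. The gene lies on chromosome 20 (49982980 to 49988886).
SNAI2, also called SLUG, is its close paralogue and lies on chromosome 8 (48917598 to 48921429). It stood at 538 and 530 reads, or 0.10 [-0.15 to 0.35] on the log2 scale. The intervals of the paralogues do not overlap.
TWIST1, a basic helix-loop-helix factor on chromosome 7 (19113047 to 19117636), had 1155 and 1396 reads. Its ratio of 0.39 [0.23 to 0.55] lay above 0 but under the 1.5-fold call, and on the deposited RPKM scale it was -0.25.
ZEB1 and ZEB2 are zinc finger and homeobox repressors best known as targets of the miR-200 family. ZEB1, on chromosome 10 (31318417 to 31529804), had 2044 and 1668 reads, a ratio of -0.18 [-0.31 to -0.04]. ZEB2, on chromosome 2 (144384081 to 144520119), had 911 and 847 reads, a ratio of 0.01 [-0.18 to 0.21]. Neither reached 1.5-fold, and the ZEB1 interval leaves out 0 while that of ZEB2 holds it; the intervals of both genes overlap.

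Neither of the 2 cadherins reached the call. CDH1, on chromosome 16 (68737292 to 68835537), had 18 and 21 reads, a ratio of 0.34 [-1.09 to 1.80], an interval that allows more than a 2-fold difference in either direction. CDH2, on chromosome 18 (27932879 to 28177130), had 4711 and 3601 reads, a ratio of -0.27 [-0.36 to -0.18]. CDH2 was thus 1.21-fold lower at a depth where that is beyond counting error, and a difference in CDH1 was not detectable at this depth. Of all measured genes 15.9% had a ratio as low as that of CDH2 or lower.

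VIM and FN1, the filament and matrix genes, were both lower. VIM, on chromosome 10 (17228241 to 17237593), had 28866 and 22532 reads, a ratio of -0.24 [-0.28 to -0.20]. FN1, which encodes fibronectin, on chromosome 2 (215360865 to 215436068), had 3924 and 2838 reads, a ratio of -0.35 [-0.45 to -0.25]. FN1 was 1.28-fold and VIM 1.18-fold lower, and their intervals overlap with that of CDH2.

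CD44, on chromosome 11 (35139171 to 35232402), is spliced into a standard form and many variant forms. It had 2577 control and 4891 miR-34a reads over 8 listed transcripts, a ratio of 1.04 [0.94 to 1.14]. Of all measured genes 3.81% had a ratio as high or higher. The 8 transcripts lay between 0.87 and 1.14 and the interval of each was above 0; they share most of their sequence, so they are not independent. NM_001001391, which encodes the standard form, had the most reads, 447 and 850. Its share of the CD44 reads was 17.3% in the control and 17.4% with the mimic, and the scarcest transcript, NM_001202557, held 4.73% and 4.68%. How reads that match several transcripts of a gene were assigned is not given. The 6 ZEB1 transcripts, for example, each held between 15.6% and 18.2% of its control reads. Shares and ratios of single transcripts are therefore no measure of the use of each form.

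**Figure D3:**
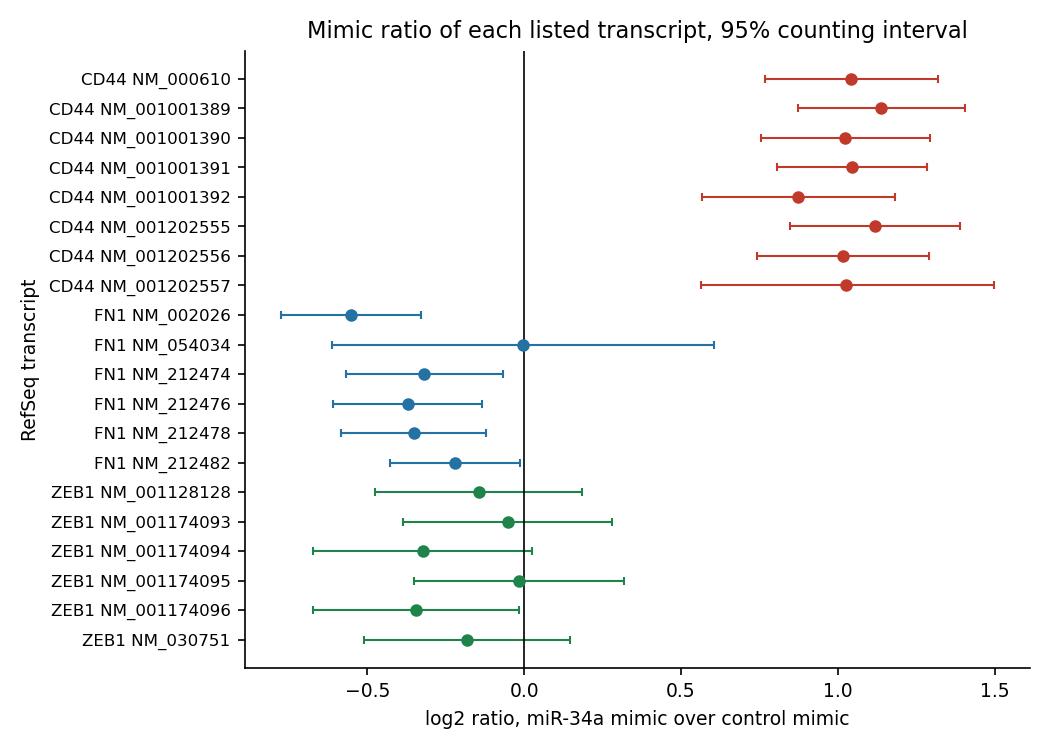
Log2 ratio of miR-34a mimic over control mimic for each listed RefSeq transcript of CD44, FN1 and ZEB1, with 95% counting intervals. The 8 CD44 transcripts lie between 0.87 and 1.14, the 6 FN1 transcripts between -0.55 and 0.00, and the 6 ZEB1 transcripts between -0.34 and -0.02.

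The transcripts of FN1 were less alike. NM_002026 had 865 and 544 reads, a ratio of -0.55 [-0.78 to -0.33], the lowest of its 6 transcripts. NM_054034, which encodes a truncated fibronectin, had 100 and 92 reads, a ratio of 0.00 [-0.61 to 0.60]. The intervals of all 6 FN1 transcripts overlap, as do those of all 6 ZEB1 transcripts. Of the 3 ZEB2 transcripts the noncoding NR_033258 had 38 and 24 reads, and the coding NM_001171653 and NM_014795 stood at 0.05 and 0.02.

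The second comparison sets the RNA that came down with biotin-labelled miR-34a against the NC pulldown. Here FN1 was lower and none of the 10 genes was called higher. SNAI2, TWIST1 and CDH2 had higher ratios that did not pass, VIM was lower by less than 1.5-fold, and CD44, ZEB1 and ZEB2 had too few reads to be measured. SNAI1 and CDH1 have no row in the pulldown table, whose lowest control count is 1, and were not analysed there. Of 6253 genes measured, 6.08% were called higher and 2.96% lower, and of those with 20 to 49 reads 2.68% and 2.22%. Against these shares stand 0 higher and 1 lower of the 5 genes measured. By the interval alone 0 were higher and 2, VIM and FN1, lower, where 7.08% and 3.66% of all genes were; on the deposited RPKM scale VIM stood at -0.18 with an interval of -0.49 to 0.13.

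SNAI2 had 3 control and 20 miR-34a reads, a ratio of 1.94 [-0.51 to 5.90]. It had the highest ratio of the 5, with 3.04% of measured genes as high or higher, on 23 reads in all. Intervals were computed on counts divided by 2 in both arms, which widens them. In total RNA low counts of genes with 1 transcript are mostly even, as counting both ends of a pair would make them, with 96.0% even in the control and 96.3% in the miR-34a library at 2 to 9 reads. In the pulldown 73.5% and 61.7% were even at 2 to 9 reads but 52.3% and 51.0% at 10 to 49 reads, so the halving has less basis there. On the counts as deposited the SNAI2 interval was 0.19 to 4.33 and the gene passed, so its call depends on this choice.
TWIST1 had 9 and 33 reads, a ratio of 1.08 [-0.48 to 2.98]. CDH2 had 10 and 25 reads, a ratio of 0.53 [-1.07 to 2.37]. Both intervals hold 0, so a 2-fold difference such as that of TWIST1 after scaling to library totals was not detectable at this depth.

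VIM had 320 and 407 reads, the deepest of the 10 in the pulldown. Its ratio was -0.45 [-0.76 to -0.14], under 1.5-fold and below the median gene at 0.11; of genes with 100 reads or more and under 1000, 10% were called higher and 4.04% lower. FN1 had 40 and 32 reads, a ratio of -1.12 [-2.16 to -0.10], and 4.40% of measured genes were as low or lower. The FN1 call was lost with a 99% interval (-2.48 to 0.20), on the deposited RPKM scale and with its most abundant transcript alone.

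CD44 had 6 control reads, 2 on each of 3 transcripts, and 3 miR-34a reads, a ratio of -1.80 [-6.07 to 1.52]. ZEB1 had 10 and 6 reads, a ratio of -1.53 [-4.22 to 0.83], and ZEB2 had 6 and 11, a ratio of 0.08 [-2.21 to 2.73]. A transcript without a control read is not listed, which leaves 3 of 8 CD44 transcripts, 4 of 6 ZEB1 transcripts and 5 of 6 FN1 transcripts in the pulldown table. Reads on the others could not be added, and their absence can only lower the ratio of these 3 genes.

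The share of a gene in the pulldown was then set against its share in total RNA of the mimic arm, over the transcripts listed in both tables. The miR-34a pulldown was paired with the miR-34a mimic, and the control pulldown with the control mimic. None of the 4 libraries is input RNA of the pulldown, so these ratios are not recovery against a matched input. They use the same 4 libraries again. CD44 had the widest gap between its control and miR-34a values, though their intervals overlap. In the control libraries it stood at 19.3 CPM in the pulldown and 23.6 in total RNA, a log2 ratio of -0.29 [-2.57 to 1.27]. In the miR-34a libraries it stood at 5.56 and 46.9, a log2 ratio of -3.08 [-6.88 to -0.98], with 1.57% of 10027 genes as low or lower. This rests on 3 reads in the miR-34a pulldown, and a transcript was listed only where it had a control pulldown read, which favours a higher control value.

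**Figure D4:**
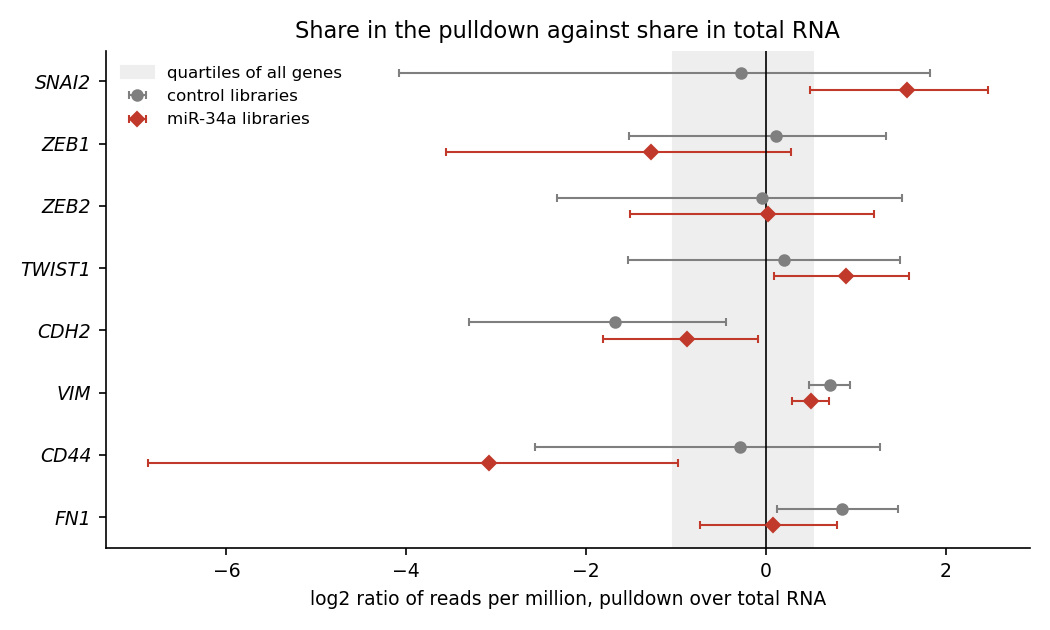
Log2 ratio of CPM in the pulldown over CPM in total RNA of the mimic arm, which is not pulldown input, for the 8 genes with a pulldown row. Control libraries are grey circles and miR-34a libraries red diamonds, with 95% counting intervals. The grey band spans the quartiles of all genes with 100 or more total RNA reads. CD44 lies at -3.08 in the miR-34a libraries, SNAI2 at 1.57 and CDH2 below 0 in both.

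SNAI2 stood at the other end. In the miR-34a libraries it had 37.1 CPM in the pulldown and 12.5 in total RNA, a log2 ratio of 1.57 [0.49 to 2.47], and 96.9% of genes were as low or lower. In the control libraries its ratio was -0.28 [-4.08 to 1.83], on 3 pulldown reads, and the 2 intervals overlap.
CDH2 was below 0 in both kinds of libraries, at -1.67 [-3.30 to -0.45] in the control and -0.88 [-1.81 to -0.08] in the miR-34a libraries. Of genes with 100 or more total RNA reads, 12.95% were as low or lower in the control libraries and 29.0% in the miR-34a libraries. In the latter CDH2 lay within the quartiles of these genes. VIM was high in both kinds, at 0.71 [0.48 to 0.94] and 0.50 [0.30 to 0.70]. For all genes with 100 or more total RNA reads the medians were -0.20 and -0.29. TWIST1 was at 0.20 and 0.89, FN1 at 0.84 and 0.08, ZEB1 at 0.11 and -1.27, and ZEB2 at -0.04 and 0.03, and the control and miR-34a intervals of each of these genes overlap.

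Set side by side, SNAI2 had the highest pulldown ratio of the 5 measured and 0.10 with the mimic, and CD44, highest with the mimic, had 9 pulldown reads. FN1 and VIM were below 0 in both comparisons, TWIST1 was above 0 in both (with the mimic, not on the deposited RPKM scale), and CDH2 stood at 0.53 and -0.27. The deposited UTR tables come without a stated criterion. They hold 6 of the 10 genes for the mimic arm, namely SNAI1, ZEB1, CDH1, CDH2, VIM and FN1, against 25.8% of measured genes. For the pulldown arm they hold 4 of the 8 genes listed there, namely ZEB1, CDH2, VIM and FN1, against 27.1% of measured genes. CD44, SNAI2, ZEB2 and TWIST1 are not among them.

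The neighbours of these genes in EMT were described from further lists. Other EMT transcription factors had 2 higher and 3 lower of 14 measured with the mimic, with a median of 0.05. Of all measured genes 6.80% were called higher and 2.45% lower, or 15.8% and 6.19% at 100 reads or more and under 1000. SOX4 and FOXC1 lay above this range of reads, where the shares were not computed. On the deposited RPKM scale 0 of the list were higher and 7 lower, where 196 and 8177 of all 14787 genes were. At 2-fold 0 of the list were higher and 1 lower. The homeobox gene GSC (199 and 298 reads, 0.70) and TBXT, the brachyury gene, (66 and 100 reads, 0.72) were higher. SOX4 fell from 22003 to 11515 reads, a ratio of -0.82 [-0.86 to -0.77], and the forkhead gene FOXC1 from 12738 to 7351, a ratio of -0.68 [-0.74 to -0.62]. SNAI3, the third member of the SNAIL family, was lower at -1.04 [-1.93 to -0.20] on 80 and 36 reads. In the pulldown 7 of the list were measured, where 6.08% of all genes were called higher and 2.96% lower. TCF3, which encodes the E proteins E12 and E47, was higher at 0.98, a call lost with a 99% interval and at 2-fold. SOX4 was lower at -1.32.

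Mesenchymal genes other than the 10 had 9 of 29 higher and 0 lower with the mimic, where 6.80% and 2.45% of all genes were. Among genes with 100 reads or more and under 1000 the shares were 15.8% and 6.19%. LGALS1, MMP2 and ITGA5 lay above this range of reads, where the shares were not computed. The list had a median of 0.43 that lay at -0.22 on the deposited RPKM scale, where the median gene was at -0.65. LGALS1, which encodes galectin-1, had 577 and 1458 reads, a ratio of 1.45 [1.26 to 1.66]. The gelatinase MMP2 had 887 and 1756 reads, a ratio of 1.10 [0.94 to 1.27]. ITGA5, the α subunit of the fibronectin receptor, had 2619 and 4213 reads, a ratio of 0.80 [0.70 to 0.90]. TNC, which encodes tenascin-C, S100A4 and MMP9 were also higher, at 0.87, 0.83 and 2.36, MMP9 on 4 and 19 reads. On the deposited RPKM scale 1 gene of the list was called higher and 6 lower, where 196 and 8177 of all 14787 genes were. The list median lay above the median gene on both scales. At 2-fold 3 genes of the list were higher. In the pulldown 0 of 15 were higher and COL5A1 was lower, at -1.08 [-1.72 to -0.44], with a list median of -0.38. Of all genes measured there 6.08% were called higher and 2.96% lower.

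Fibronectin receptors and partners of vimentin had 6 of 12 higher and 0 lower with the mimic, against the same 6.80% and 2.45% of all genes, and a median of 0.58, or -0.06 on the deposited RPKM scale. Besides ITGA5 these were the muscle filament gene DES (26 and 129 reads, 2.43), the lamin gene LMNA (0.81), GFAP (0.78), the integrin gene ITGB3 (0.67) and the filament gene NES (0.65). On the deposited RPKM scale 1 gene of this list was called higher and 1 lower, where 196 and 8177 of all 14787 genes were. At 2-fold 1 was higher. In the pulldown 6 of the list were measured, where 6.08% of all genes were called higher and 2.96% lower. NES was higher at 1.90 on 8 and 52 reads. The cytolinker gene PLEC was lower at -0.82 on 416 and 409, a call lost on the deposited RPKM scale and at 2-fold.

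Epithelial junction and keratin genes had 4 of 30 higher and 1 lower with the mimic, where 6.80% and 2.45% of all genes were. Among genes of 100 reads or more and under 1000 these shares were 15.8% and 6.19%. KRT19 lay above this range of reads, where the shares were not computed. The list median was 0.27, or -0.37 on the deposited RPKM scale. On that scale 1 was higher and 10 lower, where 196 and 8177 of all 14787 genes were. ST14, the membrane protease matriptase, had 51 and 138 reads, a ratio of 1.55 [0.88 to 2.27], and its inhibitor SPINT1 had 398 and 674, a ratio of 0.88 [0.62 to 1.14]. KRT19 was higher at 0.82 and CLDN7 at 0.68, and the tight junction gene MARVELD2 was lower at -1.17. Of 7 measured epithelial regulators only OVOL2, a repressor of EMT factors, passed, with 26 and 56 reads and a ratio of 1.22 [0.23 to 2.30]; it did not pass with a 99% interval or on the deposited RPKM scale, where 2 regulators were lower. In the pulldown 0 of 11 junction genes were higher and 1 lower, where 6.08% and 2.96% of all genes were. The lower gene was JUP, the plakoglobin gene, at -0.63, a call lost on the deposited RPKM scale, with a 99% interval and at 2-fold. The one regulator measured, ESRP2, stood at 0.17.

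Other cadherins had 3 of 11 higher and 0 lower with the mimic, where 6.80% and 2.45% of all genes were. Among genes of 100 reads or more and under 1000 these shares were 15.8% and 6.19%. CDH3 lay above this range of reads, where the shares were not computed. The list median was 0.10. On the deposited RPKM scale 1 was higher and 2 lower, where 196 and 8177 of all 14787 genes were. CDH3, which encodes P-cadherin, had 590 and 1151 reads, a ratio of 1.08 [0.88 to 1.29]. CDH13, the gene of the GPI-anchored T-cadherin, had 204 and 396 reads, a ratio of 1.07 [0.72 to 1.43], and CDH15, of muscle, had 9 and 44. The intervals of CDH3 and CDH13 do not overlap with that of CDH2. CDH4, the R-cadherin gene, was the one other cadherin measured in the pulldown and was lower, with 16 and 5 reads, a call lost with a 99% interval. Catenins, which tie cadherins to actin, had 0 of 8 called with the mimic and a median of -0.08. On the deposited RPKM scale 7 were lower, where 8177 of all 14787 genes were. In the pulldown JUP was the 1 of 7 called, where 6.08% of all genes were called higher and 2.96% lower.

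**Figure D5:**
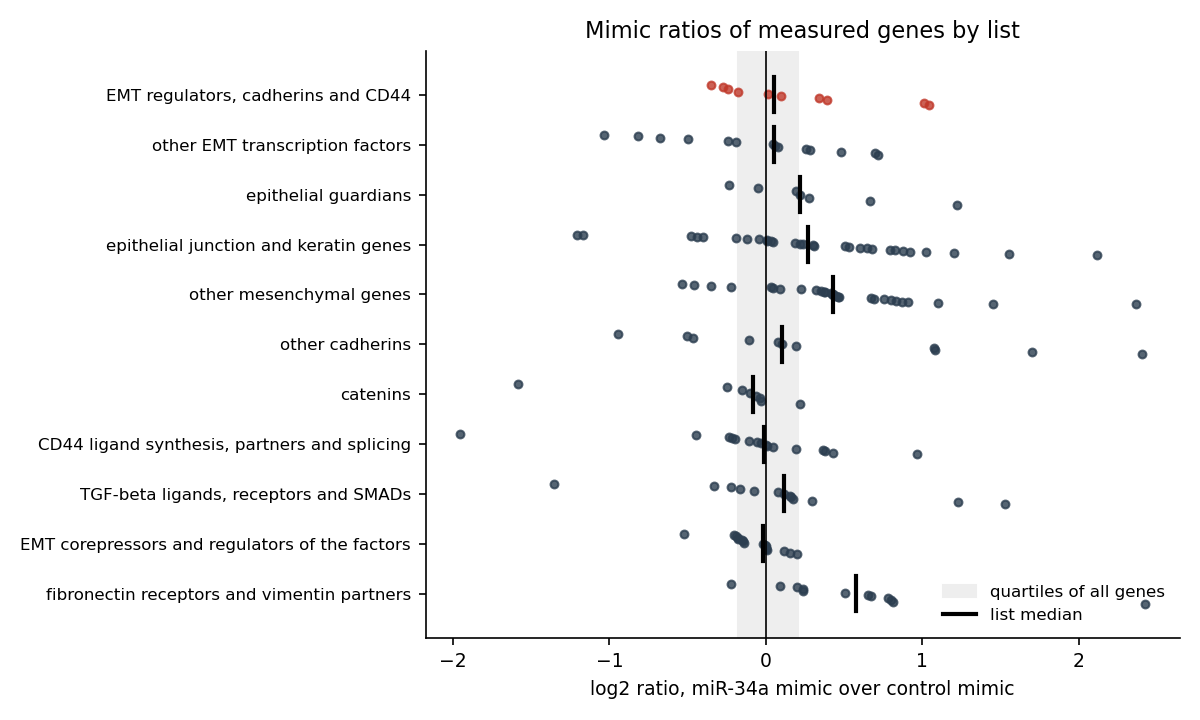
Log2 ratio of miR-34a mimic over control mimic for every measured gene of each list, 1 point per gene, with the list median as a black bar; the grey band spans the quartiles of all genes (-0.18 to 0.21). The 10 genes are in red at the top with a median of 0.05. The medians of mesenchymal genes (0.43) and of fibronectin receptors and vimentin partners (0.58) lie to the right of the band. On the deposited RPKM scale both are below 0, and the median gene is at -0.65.

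CD44 was set beside the genes that make, bind or splice for it. Of 16 measured with the mimic, 0 were higher and 1 lower, where 6.80% and 2.45% of all genes were. The 1 lower gene was HAS2, a synthase of the CD44 ligand hyaluronan, with 122 and 29 reads and a ratio of -1.96 [-2.89 to -1.11]. On the deposited RPKM scale 11 were lower, where 8177 of all 14787 genes were. The ERM genes that link CD44 to actin had log2 ratios of 0.37 (MSN), 0.01 (EZR) and -0.44 (RDX), and the splicing regulator genes ESRP1 and ESRP2 had -0.24 and 0.19; these 5 were named after their values were seen. In the pulldown 0 of 7 were called, where 6.08% of all genes were called higher and 2.96% lower.

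Genes of TGF-beta signalling, a pathway that induces SNAIL and ZEB factors, had 2 of 13 higher and 0 lower with the mimic. The shares over all genes were 6.80% and 2.45%, or 15.8% and 6.19% at 100 reads or more and under 1000. TGFB1 lay above this range of reads, where the shares were not computed. The median of the 13 was 0.12. TGFB1 rose from 2467 to 5327 reads, a ratio of 1.23 [1.13 to 1.33], and INHBA from 12 to 32. On the deposited RPKM scale 0 of the list were called higher and 5 lower, where 196 and 8177 of all 14787 genes were. With a 99% interval 1 was higher. In the pulldown 3 of 7 were higher and 0 lower, where 6.08% and 2.96% of all measured genes were. The receptor gene TGFBR1 had 4 and 47 reads (2.76 [0.75 to 5.89]). SMAD4 had 8 and 51 (1.88 [0.35 to 3.86]) and SMAD3 had 9 and 45 (1.53 [0.04 to 3.39]). The share of genes called at the depth of these 3 was not computed. With a 99% interval 1 of the list was called. With the mimic these 3 stood at -0.22, -0.33 and 0.08. Corepressors and regulators of EMT factors had 0 called of 17 with the mimic and 0 of 15 in the pulldown, with medians of -0.02 and 0.29. On the deposited RPKM scale 14 were lower with the mimic, where 8177 of all 14787 genes were. In the pulldown 4 were higher on that scale, where 775 of all 6253 genes were.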

How the data were processed

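RNA was isolated with Trizol and libraries followed Illumina's usual protocols, per the labels. Bowtie2, edgeR and the build hg38 appear in the submitters' processing notes, without roles or versions; filters and strand use are not given in the sources consulted. The deposited counts are whole reads per RefSeq transcript, not normalized, and the authors deposited an RPKM value beside each. The miR-34a over control ratio of the RPKM worth of 1 read was 0.6941 in both tables, whereas control over miR-34a totals were 0.5621 (pulldown) and 1.0659 (mimic). RPKM ratios between libraries thus do not correct for the listed totals of either pair, and the origin of the shared factor is not given. A call lost or gained on that scale follows from a shift common to all genes of a comparison. RPKM served only as an alternative scaling and to order genes within a library. The deposited UTR tables hold a subset of the same transcripts with identical counts and served as gene lists.

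Reads were summed per gene name; date-like names were resolved through accessions, of which 98.8% (pulldown) and 98.3% (mimic) matched the GRCh38.p14 RefSeq table. Totals were scaled with TMM (edgeR 4.0.16, R 4.3.3). Intervals are exact conditional binomial (Clopper-Pearson) on counts divided by 2 (scipy 1.17.1) and cover counting error only. Halving rests on the share of even counts, which is high in total RNA and near that of odd counts in the pulldown from 10 reads on; counts as deposited were the alternative. The ratio calculation was tested on simulated data. Of each further list, the called genes were named, at most 6 per comparison; any other gene was named after its values were seen. The 10 genes and all lists were chosen with earlier results of these data known.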

Additional observations from a re-analysis of the deposited data

How the results depend on the processing

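The limits are 1 library per group and the shallow pulldown, in which TWIST1, 2.11-fold apart on 42 reads, lay within counting error. No paired analysis was possible because each group has 1 library, and leaving out a replicate was not possible for the same reason. Library totals, DESeq2 size factors, and a minimum of 10 or 0 reads changed no call among the 10 genes; with library totals the lower genes of 3 further lists moved by more than 1.5 times, each by 1 gene, and with the lower minimums those of 2 lists did. On deposited RPKM the mimic ratios were 0.40 for CD44 and 0.37 for SNAI1, which both lost their call, -0.55 for SNAI2, -0.82 for ZEB1, -0.63 for ZEB2, -0.25 for TWIST1, -0.91 for CDH2, -0.88 for VIM and -0.99 for FN1, which gives 0 higher and 5 lower of the 10; this scale moves every mimic ratio by the same amount. The pulldown ratio of FN1 was -0.85 there, -1.12 with a 99% interval and -1.43 with its most abundant transcript, not called in any, so that 0 of the 10 were lower on RPKM and with the 99% interval. With counts as deposited SNAI2 (1.94) was called, which makes 1 higher. With no minimum fold 2 of the 10 were lower in the pulldown and 4 with the mimic. With the most abundant transcript alone the mimic ratios of ZEB1 and FN1 were -0.34 and -0.22. Over all genes the pulldown counts of higher and lower genes, 380 and 185, were 775 and 80 on RPKM, 818 and 469 with counts as deposited, and 200 and 87 with the 99% interval. The mimic counts, 1006 and 363, were 196 and 8177 on RPKM, 3742 and 3412 with no minimum fold, and 487 and 153 at 2-fold. The cause of these changes beyond the shift in scale and the stricter or looser interval was not tested.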
